A study of Mus musculus with 6 samples.

Results

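miR-132 and miR-212 are 2 microRNAs made from neighbouring hairpins of a shared transcript, and their 4 mature products were followed here in mouse hippocampus: mmu-miR-132-3p, mmu-miR-132-5p, mmu-miR-212-3p and mmu-miR-212-5p, written below without the species prefix. These were all the rows named for either microRNA, 4 of 2035 mature miRNA rows and of 109108 rows in all. Small RNA was sequenced in 6 libraries from the hippocampus of male C57BL/6 mice aged 3 months. All mice, controls included, carried Dicer1 flox/flox alleles and were killed 3 weeks after tamoxifen. In 3 libraries (Dicer1-ifKO) the CaMKIIa-creERT2 transgene was present as well, a recombinase switched on by tamoxifen and driven by a promoter of excitatory forebrain neurons, and in the other 3 (WT) it was absent. Each library held RNA pooled from 3 mice, per the labels, although the design text gives a total of 12 mice per genotype, more than 3 such pools hold. Values of the 3 libraries of a genotype are given in the order of replicates 1, 2 and 3. Glia, vessels and inhibitory neurons do not normally use this promoter, so hippocampal tissue of Dicer1-ifKO mice still holds cells with Dicer1.

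Dicer1 encodes the ribonuclease that cuts a precursor hairpin into a short duplex, whose 5′ strand (5p) and 3′ strand (3p) can each be loaded into an Argonaute protein. The transcript of miR-132 and miR-212 is induced by neuronal activity and by the neurotrophin BDNF through the transcription factor CREB, and in the hippocampus miR-132 is known for promoting dendrite growth and spine formation. A microRNA recognises its target mRNAs mainly through its seed, the bases next to its 5′ end.

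The sequences of the 4 products are shown because they decide which of them share targets and whether their reads can be told apart. They are RefSeq sequences of GRCm38.p6, written 5′ to 3′, and capitals mark the seed (bases 2 to 8).
miR-132-3p: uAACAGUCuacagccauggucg
miR-212-3p: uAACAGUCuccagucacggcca
miR-132-5p: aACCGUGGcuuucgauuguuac
miR-212-5p: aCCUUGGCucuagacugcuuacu
The 3p products shared 1 seed, which no other of 1679 mature names in the RefSeq table has, and they were identical over the first 9 bases. Over all 22 bases they differed at 5 positions, counted from the 5′ end: A10C, C14U, U17C, U20C and G22A, with the base of miR-132-3p first. Reads of full length can thus be assigned to 1 of them. The 5p products had different seeds, and neither seed occurs in another name of the table.

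Both hairpins lie on the plus strand of chromosome 11 (GRCm38), 203 bases apart, in the same intron of the noncoding RNA 1700016P03Rik (GENCODE M21, 3 exons). They are shown with the 5p and 3p products in capitals.
Mir212, at 75173388 to 75173478: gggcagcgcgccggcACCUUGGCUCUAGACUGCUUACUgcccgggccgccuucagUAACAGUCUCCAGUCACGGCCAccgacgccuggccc
Mir132, at 75173682 to 75173747: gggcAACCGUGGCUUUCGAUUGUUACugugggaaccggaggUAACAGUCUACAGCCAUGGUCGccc
The products themselves lie at 75173403 to 75173425 (miR-212-5p), 75173443 to 75173464 (miR-212-3p), 75173686 to 75173707 (miR-132-5p) and 75173723 to 75173744 (miR-132-3p). Each has 1 row in the files, and 0 rows on the opposite strand overlap them.

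The reads of the whole host transcript were those of these 4 products. The 1700016P03Rik span, which covers its introns, held 13070, 15059 and 16574 counts in WT against 11720, 11590 and 9619 in Dicer1-ifKO. The 4 rows together held 13069, 15060, 16573, 11720, 11589 and 9615 in the same order, so the difference ran from -1 to 4 counts. Neighbouring genes gave little small RNA: over all 6 libraries Hic1-001 held 2 counts, Ovca2-001 9, Dph1-001 11, Smg6-001 54 and Rtn4rl1-001 56.

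The counts of mature miRNA rows summed to 2318205 to 3179363 per library, and the members held 1064 to 10472 counts each, which gives a relative counting error of 0.98% to 3.07%. Libraries of 1 genotype differed by far more than counting noise (chi-square over degrees of freedom of 22.0 to 65.3 over miRNA rows). The Dicer1 span held 33 to 47 counts in WT and 32 to 37 in Dicer1-ifKO, too few to check the genotype labels, and its reads do not resolve the floxed exon. WT replicate 1 stood apart, with 0.61% of its counts on the mitochondrial chromosome against 0.30% to 0.41% in the other libraries, and 0.069% in 5S rRNA rows against 0.021% to 0.038%. Levels below are CPM, read counts per 1000000 counts summed over the 6539 tested features, after TMM scaling. The products are 22 or 23 bases long, so no correction for length was made. How evenly the libraries captured different sequences was not tested, so ranks and ratios between products describe reads, not molecules.

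The comparison asks how the 4 products changed after Dicer1 was inactivated in excitatory neurons. Of the 4, miR-212-3p fell and the other 3 did not pass the test. Its level in Dicer1-ifKO was 0.60 times that in WT, while the fitted ratios of miR-212-5p, miR-132-3p and miR-132-5p were 0.72, 0.77 and 0.90. Thus 1 of 4 members was called lower and 0 higher (edgeR quasi-likelihood test, adjusted p of at most 0.05 over 6539 features). At an unadjusted p of at most 0.05 the edgeR counts were 2 and 0, where 31.1% of miRNA rows were lower and 2.01% higher, so a count of 2 among 4 says little. DESeq2 called 1 member lower and 0 higher, beside 6.59% and 0% of miRNA rows. Among all 546 tested miRNA rows 6.59% were called lower and 0% higher, and among all features 0.795% and 0.0153%. In RNA of whole tissue, fewer cells of a type and less RNA per cell cannot be told apart.

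**Figure D1:**
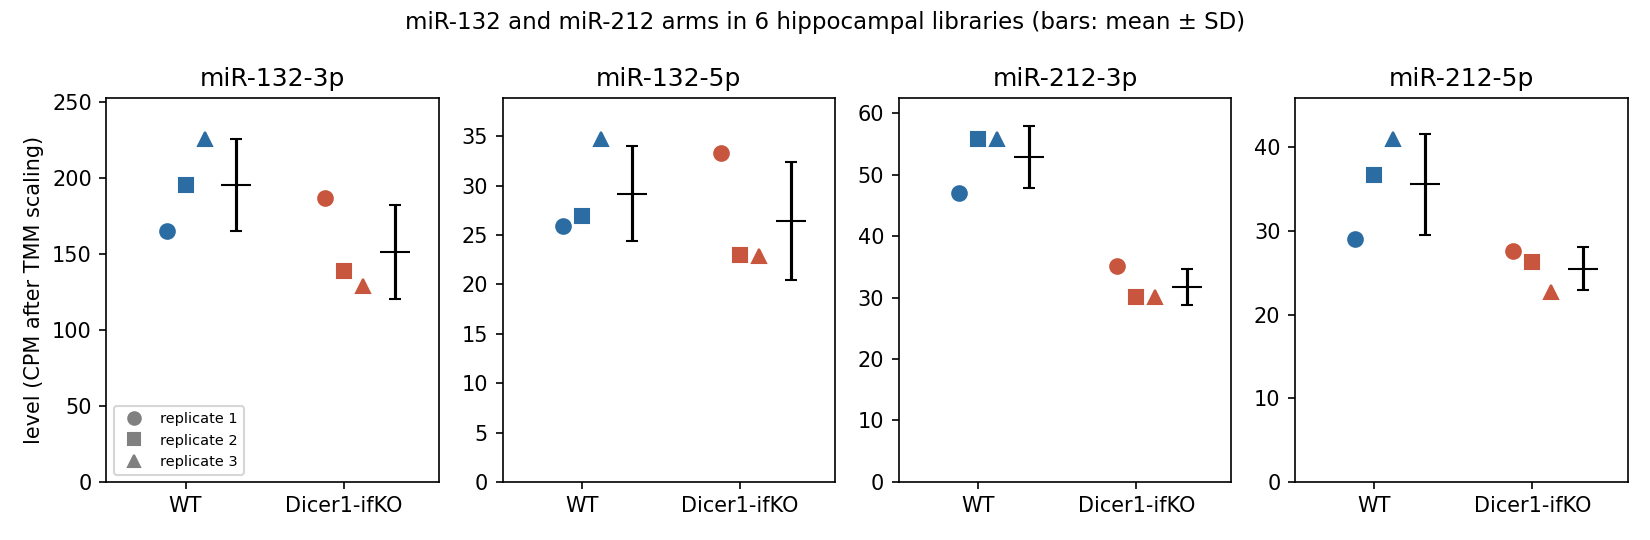
Level of each mature product (CPM after TMM scaling, each axis from 0) in 3 WT and 3 Dicer1-ifKO libraries, with 1 point per library, the replicate number by shape and the mean ± SD beside the points. The groups do not overlap for miR-212-3p and miR-212-5p, while Dicer1-ifKO replicate 1 lies among the WT libraries for miR-132-3p and miR-132-5p.

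miR-212-3p, which carries the seed shared with miR-132-3p, held 2302, 2667 and 2588 raw counts in WT against 1459, 1599 and 1415 in Dicer1-ifKO. Its levels were 47.1, 55.8 and 55.8 CPM in WT, and 35.2, 30.1 and 30.2 CPM in Dicer1-ifKO. Every Dicer1-ifKO library lay below every WT library, with WT replicate 1 the lowest control and Dicer1-ifKO replicate 1 the highest of its group. The means were 52.9 ± 5.04 and 31.8 ± 2.93 CPM (SD, n = 3 each), a log2 change of -0.73 ± 0.15 (SE; edgeR adjusted p = 0.048). The 95% interval of the log2 change ran from -1.07 to -0.40. This call lay close to the threshold: it was lost when WT replicate 2, WT replicate 3 or any Dicer1-ifKO library was left out (edgeR adjusted p = 0.26 and 0.24, then 0.087, 0.59 and 0.28 for the Dicer1-ifKO libraries in order) and was stronger without WT replicate 1 (edgeR adjusted p = 0.0037). Under a scaling taken from the miRNA rows alone, which moves their median log2 change from -0.24 to 0.0013, its log2 change was -0.50 and was not called (edgeR adjusted p = 0.38).

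miR-212-5p, the other strand of the same duplex, held 1419, 1756 and 1902 counts in WT against 1143, 1396 and 1064 in Dicer1-ifKO. Its levels were 29.0, 36.7 and 41.0 CPM in WT and 27.6, 26.3 and 22.7 CPM in Dicer1-ifKO. The groups did not overlap, but WT replicate 1 lay only just above Dicer1-ifKO replicate 1. The means were 35.6 ± 6.07 and 25.5 ± 2.53 CPM (SD, n = 3 each), with a log2 change of -0.48 ± 0.17 (SE; edgeR adjusted p = 0.37; 95% interval -0.85 to -0.11), which did not pass. Under the scaling from the miRNA rows the log2 change was -0.23. Without WT replicate 1 it was called, at a log2 change of -0.61 (edgeR adjusted p = 0.040).

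Having no overlap between groups is common in these libraries. It held for 33.9% of the tested miRNA rows in the lower direction and for 2.01% in the higher one, so that the 2 of 4 members without overlap say little by that count.

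miR-132-3p was the most abundant of the 4. It held 8080, 9349 and 10472 counts in WT against 7737, 7371 and 6061 in Dicer1-ifKO. Its levels were 165, 196 and 226 CPM in WT and 187, 139 and 129 CPM in Dicer1-ifKO. Dicer1-ifKO replicate 1 lay above WT replicate 1, so the groups overlapped, and the other Dicer1-ifKO libraries lay below all controls. The means were 195 ± 30.2 and 151 ± 30.8 CPM (SD, n = 3 each), with a log2 change of -0.37 ± 0.17 (SE; edgeR adjusted p = 0.66) and a 95% interval of -0.74 to 0.01. That interval includes both no change and the change found for miR-212-3p. The log2 change was -0.21 without WT replicate 3 and -0.13 under the scaling from the miRNA rows.

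miR-132-5p, its less abundant partner strand, held 1268, 1288 and 1611 counts in WT against 1381, 1223 and 1075 in Dicer1-ifKO. Its levels were 25.9, 26.9 and 34.7 CPM in WT and 33.3, 23.0 and 22.9 CPM in Dicer1-ifKO. Here Dicer1-ifKO replicate 1 was above WT replicates 1 and 2. The means were 29.2 ± 4.81 and 26.4 ± 5.98 CPM (SD, n = 3 each), and the log2 change was -0.14 ± 0.19 (SE; edgeR adjusted p = 0.96; 95% interval -0.56 to 0.27). Its sign was not stable: it was 0.092 under the scaling from the miRNA rows and 0.042 without WT replicate 3. It was -0.23 without WT replicate 1, and -0.35, -0.034 and -0.055 without Dicer1-ifKO replicates 1, 2 and 3.

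Set among all tested miRNA rows, the members were of middle to high abundance. By mean CPM in WT, miR-132-3p ranked 55, miR-212-3p 105, miR-212-5p 127 and miR-132-5p 139 of 546. Those rows had a median log2 change of -0.24, with 75.5% of them negative. The value of miR-132-5p lay above that median, that of miR-132-3p below it by less than its own SE, and those of both miR-212 products below it by more than theirs. From the lowest log2 change upwards, miR-212-3p ranked 70, miR-212-5p 154 and miR-132-5p 332, with miR-132-3p between those of miR-212-5p and miR-132-5p.

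**Figure D2:**
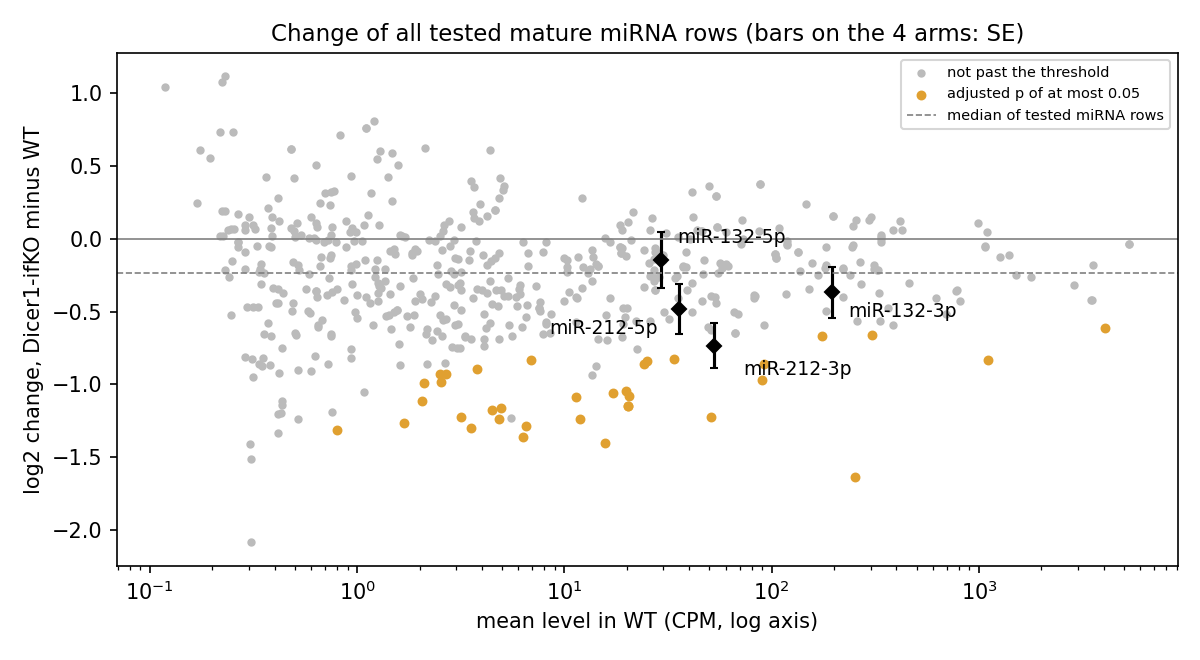
Log2 change (Dicer1-ifKO minus WT) of all 546 tested mature miRNA rows against their mean level in WT (CPM, log axis), with the 4 products as diamonds with SE bars and rows past the threshold in orange. miR-212-3p at -0.73 lies among the smaller of the called falls, and miR-132-3p at -0.37 and miR-132-5p at -0.14 lie near the dashed median of -0.24.

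In the levels of WT, miR-132-3p stood well above the rest, followed by miR-212-3p, miR-212-5p and miR-132-5p. The ranges of miR-212-5p and miR-132-5p overlapped, and those of the other neighbours in this order did not. In Dicer1-ifKO the 3 lower products came close together, at 31.8, 25.5 and 26.4 CPM for miR-212-3p, miR-212-5p and miR-132-5p. miR-212-5p had more counts than miR-132-5p in 3 of 3 WT libraries, whereas in Dicer1-ifKO replicates 1 and 3 miR-132-5p had more.

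The change in balance between the hairpins can be read within a library, where no scaling enters. miR-132-3p had 3.51, 3.51 and 4.05 counts for each count of miR-212-3p in WT against 5.30, 4.61 and 4.28 in Dicer1-ifKO. Every Dicer1-ifKO library lay above every WT library. The ratio averaged 3.69 ± 0.31 in WT libraries and 4.73 ± 0.52 in those of Dicer1-ifKO (SD, n = 3 each). Its log2 value differed by 0.36 ± 0.11 (SE), with a two-sided exact permutation p of 0.1 (adjusted p = 0.13 over 4 ratios), the smallest that 3 against 3 libraries can give. The 5p products gave ratios of miR-132-5p to miR-212-5p of 0.89, 0.73 and 0.85 in WT and 1.21, 0.88 and 1.01 in Dicer1-ifKO. These groups overlapped slightly, and the log2 difference was 0.32 ± 0.16 (SE; exact permutation p = 0.2, adjusted p = 0.2). Without Dicer1-ifKO replicate 1 it was 0.19.

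Put another way, miR-212 supplied 28.5%, 29.4% and 27.1% of the counts of the 4 rows in WT against 22.2%, 25.8% and 25.8% in Dicer1-ifKO. The means were 28.3% ± 1.15 and 24.6% ± 2.09 (SD, n = 3 each; exact permutation p = 0.1). Fitted with limma over 113 same-arm pairs of neighbouring miRNA hairpins within 10000 bases of each other, neither ratio was called. The 95% interval of the log2 difference was -0.03 to 0.75 for the 3p products (limma adjusted p = 0.28) and -0.12 to 0.75 for the 5p products (limma adjusted p = 0.38). In that fit 0.885% of pairs were called, 28.3% had groups without overlap, and the median size of the log2 difference was 0.26. Rows such as miR-431-3p serve in more than 1 pair, and miR-344d-3p is paired with another row of its own name. The pairs are thus not all separate measurements. Some hold rows far less abundant than the members, such as miR-29b-2-5p at 0.62 CPM in WT. Among these pairs a shift of this size was not unusual, and a different response of the 2 hairpins was not shown.

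The arms of each hairpin differed in read counts. miR-132 reads were mostly 3p: its 5p product took 13.6%, 12.1% and 13.3% of them in WT against 15.1%, 14.2% and 15.1% in Dicer1-ifKO. miR-212 reads were more evenly split, with 38.1%, 39.7% and 42.4% in the 5p product in WT and 43.9%, 46.6% and 42.9% in Dicer1-ifKO. In both hairpins each Dicer1-ifKO library had a larger 5p share than any WT library, although WT replicate 3 and Dicer1-ifKO replicate 3 lay close for miR-212. The mean 5p share was 13.0% ± 0.78 and 14.8% ± 0.51 for miR-132, and 40.1% ± 2.14 and 44.5% ± 1.91 for miR-212 (SD, n = 3 each; exact permutation p = 0.1 for either).

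**Figure D3:**
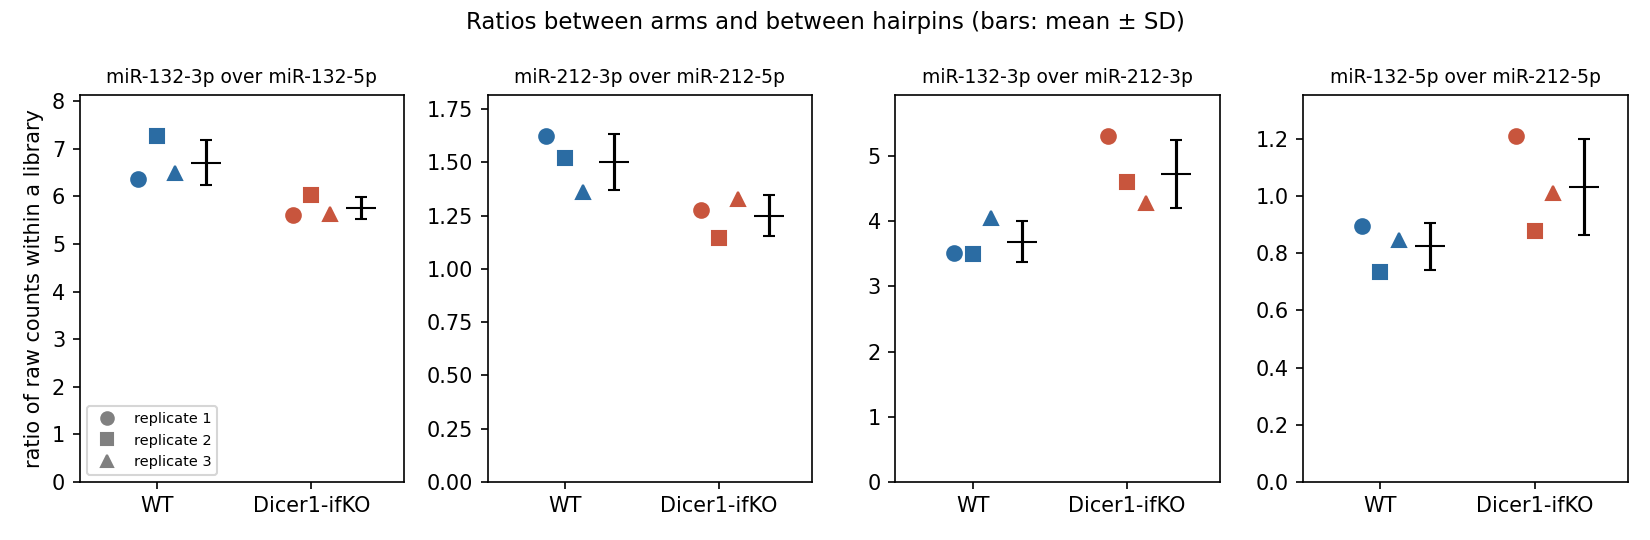
Ratios of raw counts within each library (each axis from 0), with 1 point per library, the replicate number by shape and the mean ± SD beside the points. The 3p over 5p ratio is lower in every Dicer1-ifKO library for either hairpin, and the miR-132-3p over miR-212-3p ratio is higher, from 3.51 to 4.05 in WT to 4.28 to 5.30 in Dicer1-ifKO.

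As a ratio, miR-132-3p over miR-132-5p averaged 6.71 ± 0.48 in WT libraries and 5.76 ± 0.24 in those of Dicer1-ifKO (SD, n = 3 each), a log2 difference of -0.22 ± 0.07 (SE; exact permutation p = 0.1, adjusted p = 0.13). For miR-212-3p over miR-212-5p the ratios were 1.62, 1.52 and 1.36 in WT against 1.28, 1.15 and 1.33 in Dicer1-ifKO, a log2 difference of -0.26 ± 0.10 (SE; exact permutation p = 0.1, adjusted p = 0.13). Over all 148 hairpins with both arms tested the median log2 difference of this ratio was -0.05, and 81 lay below 0. Some of the 148 mirror each other, as Mir24-2 at -0.59 and Mir3074-2 at 0.59 do, so they are not all separate measurements. In a limma fit of these hairpins 1.35% were called lower and 2.03% higher, and 31.8% had groups without overlap. Neither hairpin was called in it, with 95% intervals of -0.61 to 0.17 for Mir132 (limma adjusted p = 0.45) and -0.67 to 0.14 for Mir212 (limma adjusted p = 0.40).

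The whole transcript, taken as the 1700016P03Rik-001 span, had levels of 267, 315 and 357 CPM in WT against 283, 218 and 205 CPM in Dicer1-ifKO. Its log2 change was -0.41 ± 0.16 (SE; edgeR adjusted p = 0.48). Dicer1-ifKO replicate 1 again lay above WT replicate 1. The span repeats the reads of the 4 rows and adds no evidence of its own. Of all mature miRNA counts the 4 rows took 0.480%, 0.521% and 0.521% in WT and 0.506%, 0.423% and 0.403% in Dicer1-ifKO. The means were 0.507% ± 0.024 and 0.444% ± 0.054 (SD, n = 3 each; exact permutation p = 0.2).

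Across the 6 libraries the members moved together to different degrees. Pearson's r of log2 CPM was 0.92 between the arms of miR-212 and 0.89 between those of miR-132. Between hairpins it was 0.91 for miR-132-3p with miR-212-5p, 0.84 for the 3p products and 0.66 for the 5p products, and it was lowest for miR-132-5p with miR-212-3p, at 0.54. These are descriptions over 6 libraries of 2 genotypes that share depth and scaling.

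Among 388 other miRNA rows with a mean of at least 50 counts, those whose log2 CPM followed miR-132-3p most closely were miR-140-3p (r = 0.98), miR-340-3p (0.97), miR-380-3p (0.97), miR-3086-5p (0.96) and miR-872-3p (0.96). Their log2 changes lay between -0.16 and -0.53, and none passed the test. The closest to miR-212-3p were miR-1983 (r = 0.997), miR-361-5p (0.99), miR-410-3p (0.99), miR-330-3p (0.99) and miR-1224-5p (0.99). These rows were chosen by their likeness over both genotypes, so their difference between genotypes is partly set by that choice. Among the 6.59% of miRNA rows called lower were miR-361-5p (25.0 ± 2.56 CPM in WT, 13.9 ± 1.04 in Dicer1-ifKO; edgeR adjusted p = 0.026) and miR-410-3p (305 ± 25.9 and 193 ± 5.24 CPM; edgeR adjusted p = 0.037; SD, n = 3 each).

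Other miRNAs have been tied to neuronal activity as well. Of 23 tested rows (18 names) of a list of them 0 fell and 0 rose (edgeR; before adjustment, p of at most 0.05 in 5 lower rows and 1 higher row; 0 of either in DESeq2). The shares over all miRNA rows were 6.59% called lower and 31.1% lower before adjustment, so this count does not set the list apart. In the list 15 rows were negative, and the median log2 change of all 23 was -0.04 beside -0.24 over all tested miRNA rows. Several names of the list have more than 1 row. Those of miR-124-3p, at -0.04, -0.03 and -0.01, repeat 1 miRNA at or near that median. The median by row thus does not show that the list fell less than other miRNAs. At an adjusted p of 0.067 miR-204-5p came nearest, at 332 ± 11.8 and 225 ± 9.43 CPM (SD, n = 3 each, edgeR). miR-381-3p of the Mirg cluster stood at 363 ± 24.2 and 262 ± 22.3 CPM (edgeR adjusted p = 0.18), and the more abundant of the rows of miR-138-5p, which limits spine size, at 183 ± 46.3 and 162 ± 27.2 CPM (SD, n = 3 each, edgeR adjusted p = 0.94). miR-134-5p, a dendritic miRNA, had a log2 change of -0.59 ± 0.18 (SE, edgeR adjusted p = 0.24), while miR-34a-5p had 0.31 ± 0.24. miR-96-5p, with 7 counts in all, was too low to be tested. The choice to name miR-134-5p and miR-34a-5p was made with their values in view.

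The tissue carried the miRNAs of hippocampal neurons and of its other cells. Of 16 rows of 8 neuronal miRNAs 2 fell, both of miR-129-5p, and 0 rose (edgeR; before adjustment 4 lower and 0 higher; in DESeq2 2 lower and 0 higher), with a median log2 change of -0.12. Over all miRNA rows 6.59% fell, and 31.1% were lower before adjustment. Several of the 8 neuronal miRNAs have more than 1 row, so the counts and the median are by row and not by miRNA. The most abundant, miR-128-3p, stood at 811 ± 71.9 and 604 ± 39.2 CPM in its higher row (SD, n = 3 each, edgeR adjusted p = 0.22), and the rows of miR-9-5p had log2 changes of at most 0.02. The summed level of the list was 3161 to 4051 CPM in WT and 2619 to 3360 CPM in Dicer1-ifKO.

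In the lists of other cells, 21 rows together, 0 fell and 0 rose (edgeR; before adjustment, p of at most 0.05 in 1 lower and in 2 higher rows; 0 of either in DESeq2), where all miRNA rows had 6.59% called lower, and 31.1% lower and 2.01% higher before adjustment. For microglia and leukocytes (4 tested rows) the summed level was 162 to 199 CPM in WT and 200 to 226 CPM in Dicer1-ifKO, with a median log2 change of 0.21. Its defining marker miR-223-3p had 3 to 14 counts per library, and miR-150-5p, the most abundant, had a log2 change of 0.24. The oligodendrocyte list (5 rows) summed to 218 to 340 and 257 to 350 CPM with a median of 0.16, led by miR-338-3p (0.16). The vessel list (4 rows) summed to 359 to 589 and 455 to 617 CPM with a median of 0.12, led by miR-143-3p (0.15). The erythrocyte list (4 rows) summed to 110 to 120 and 97.6 to 116 CPM with a median of -0.03, led by miR-486-5p (-0.13). The choroid plexus and ependyma list (4 rows) summed to 321 to 347 and 220 to 239 CPM with a median of -0.61. Almost all of that sum was miR-204-5p, which other cells also express, and the defining markers miR-200c-3p and miR-449a-5p had 0 to 2 and 1 to 7 counts per library. The part of cell makeup in the change of miR-212-3p was not tested.

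The base content of the products differed as well. miR-212-3p is 54.5% G and C, the highest of the 4, with miR-132-3p at 50%, miR-212-5p at 47.8% and miR-132-5p at 45.5%, where the median of 472 tested rows with a sequence (86.4% of 546) was 47.8%. Over these rows, themselves not replicates of anything, a higher content went with a lower log2 change (Spearman's rank correlation -0.31). With that trend removed, miR-212-3p had a log2 change of -0.67 and was not called (edgeR adjusted p = 0.084), while miR-132-3p had -0.36, miR-212-5p -0.50 and miR-132-5p -0.17.

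**Figure D4:**
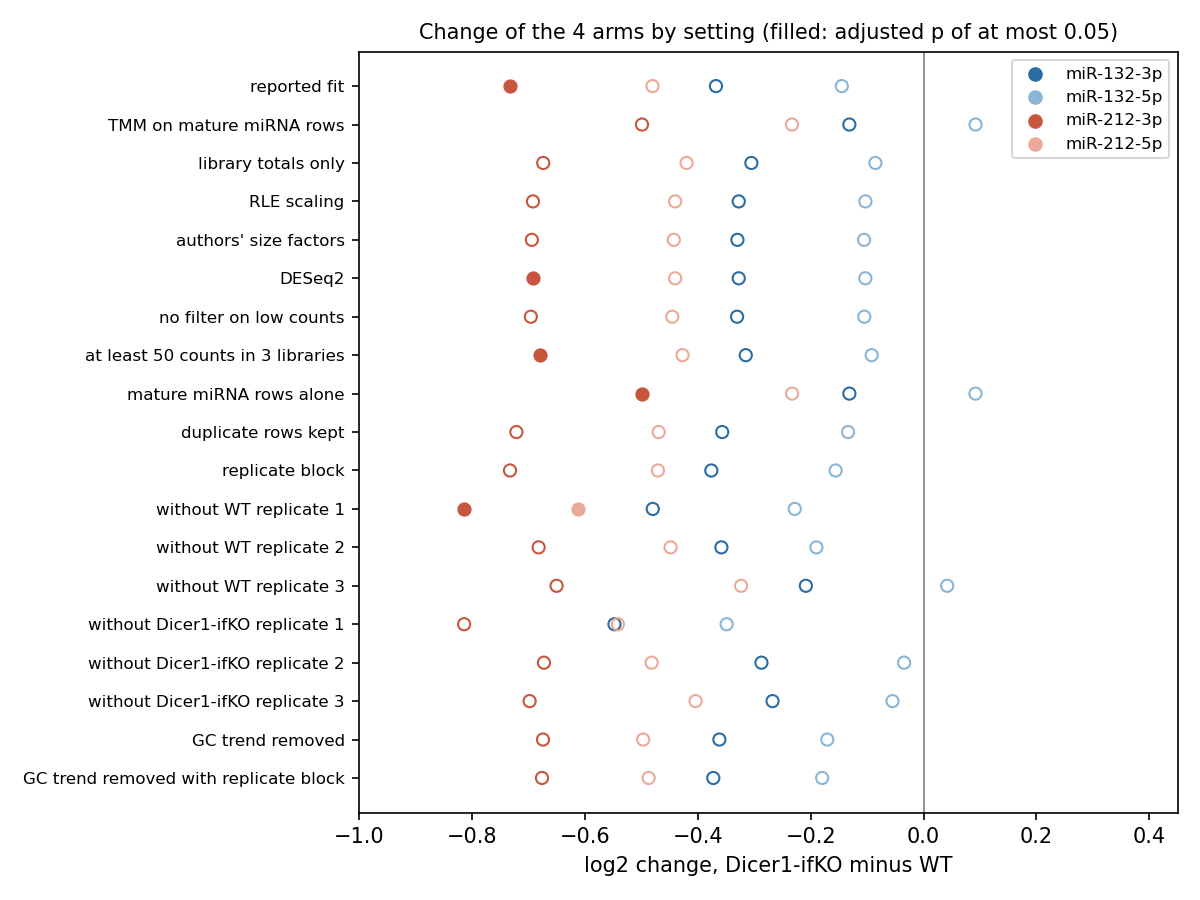
Log2 change (Dicer1-ifKO minus WT) of each product in the reported fit and under each other setting, 1 row of points per setting, with filled points for an adjusted p of at most 0.05. miR-212-3p has the largest fall in 19 of 19 fits and lies between -0.81 and -0.50, but is filled in few of them, and the points of miR-132-5p lie on either side of 0.

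Over these 19 fits the order of the members was nearly fixed. miR-212-3p had the lowest value and miR-132-5p the highest in 19, and miR-212-5p lay below miR-132-3p in 18. The exception was the fit without Dicer1-ifKO replicate 1, where they stood at -0.54 and -0.55. Scaling moves all members alike. Leaving out 1 library could hardly reverse members whose ratio within a library had groups without overlap. That was so for miR-132-3p over miR-212-3p and for 3p over 5p in either hairpin. Much of this order was therefore fixed in advance. All fits also reuse the same 6 libraries, so they are no separate support for it.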

How the data were processed

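Small RNA libraries were made with the Illumina TruSeq small RNA protocol from pooled hippocampal RNA, per the labels' protocols, which describe the 3 pools per genotype as biological replicates. Tests ran on the authors' deposited raw counts of reads in each feature. Beside them the authors deposited a normalized signal, equal to the raw column times 1 constant per library, from which only the constants were used. The submitters' processing notes list GRCm38 and, with no role for any, DESeq2, BWA, SAMtools 0.1.18 and CASAVA 1.8.2. For the counter, its strand setting and its use of multiply aligned reads, the method is not given in the sources used here. Features overlap and share reads, so CPM refer to counts summed over the tested features and not to sequenced reads. Some miRNA rows of different names held the same levels, as miR-486-5p and miR-3107-3p did (105 CPM in WT for either). Shares over all miRNA rows therefore count some reads more than once. Molecular identifiers are not given, and counting errors cover counting alone.

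Rows of 1 gene with identical counts in all libraries were counted once (13611 removed). The fit used edgeR 4.0.16 in R 4.3.3: filterByExpr (minimum count 10), TMM, robust glmQLFit, and a two-sided glmQLFTest adjusted by Benjamini-Hochberg over 6539 features at a threshold of 0.05. It was tested on simulated data. Standard errors were derived from the F statistic. Ratios used raw counts plus 0.5 and a two-sided exact permutation of the libraries. Limma 3.58.1 fitted the ratios of all hairpins. Alternatives were other scalings, DESeq2 1.42.0, count filters, duplicate rows, a replicate block and leaving out each library. The GC correction (loess, span 0.75) and the limma fits were added after the data were seen. Named were the members, their host span, the 3 most abundant rows of each list and the 5 rows closest to either 3p product by Pearson's r of log2 CPM (prior count 2). In the lists of other cells only the most abundant is printed, with miR-142-5p beside it for microglia and leukocytes. The members and lists were chosen with earlier results of these data known. The lists were drawn from general knowledge, and miRNAs such as miR-204-5p, miR-146a-5p, miR-124-3p and miR-138-5p stand in more than 1.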

Additional observations from a re-analysis of the deposited data

How the results depend on the processing

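The fall of miR-212-3p kept its direction in all 18 alternatives and was called in 4 of them: DESeq2, a filter of at least 50 counts in 3 libraries, the mature miRNA rows fitted alone, and without WT replicate 1. It was not called, and the number of members called was 0, with TMM on mature miRNA rows (log2 -0.50), library totals only (-0.67), RLE scaling (-0.69), the authors' size factors (-0.69), no filter on low counts (-0.70), duplicate rows kept (-0.72), the GC trend removed (-0.67), and the GC trend removed with the replicate block (-0.68). Its edgeR or DESeq2 adjusted p ran from 0.0037 to 0.59 over all alternatives, and the cause of the losses was not tested. miR-132-5p turned to 0.092 with TMM on mature miRNA rows and to 0.092 with the miRNA rows fitted alone. Leaving out 1 library at a time gave -0.81 to -0.65 for miR-212-3p, -0.61 to -0.32 for miR-212-5p, -0.55 to -0.21 for miR-132-3p and -0.35 to 0.042 for miR-132-5p, with 0 to 2 members called. A pair of libraries then stands against 3. The ratios and the share of the 4 rows kept their direction in all 35 alternatives that could move their values. These were another pseudocount or denominator, or 1 library left out. Where the groups of a ratio did not overlap, leaving out 1 library could not reverse its direction. A pseudocount of 5 hardly moved the ratios, so many of the 35 outcomes were fixed in advance.

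Under a replicate block miR-212-3p had -0.73 (edgeR adjusted p = 0.22), miR-212-5p -0.47, miR-132-3p -0.38 and miR-132-5p -0.16, and 0 members were called. The block cannot move a difference of ratios or shares between 3 and 3 libraries. Its exact permutation p was 0.25 for each ratio, the smallest that 3 pairs allow, and 0.5 for the share. The labels do not say that the numbers pair the libraries, and deviations of libraries with the same number correlated at -0.18, 0.08 and -0.16 over all tested features, so the number was not treated as a pairing. Over all miRNA rows the count of lower calls was 36 in the reported fit, 3 with the block, 8 with TMM on mature miRNA rows, 16 on library totals, and 1 to 70 with 1 library left out. The counting error of a member in 1 library, 0.98% to 3.07%, is smaller than the SD of its levels among the 3 libraries of either genotype.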
